A study of Homo sapiens with 4 samples.

Results

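The 31 genes described here are a set of p53 response genes, listed by symbol as known p53 targets, with earlier results of these data known, and followed across 4 arrays of one glioblastoma line. Of the 31, 28 had a probe set that the platform annotation gives to 1 gene, and all 28 passed the filter on low signals, out of 12103 genes that did so among the 19775 genes named. BTG2, BBC3 and FDXR had no such probe set and are not analysed here. Each gene is represented by its brightest probe set.

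The cells were U87TR-Da, a derivative of U87MG, an established human glioblastoma line, with DACH1 under doxycycline control. DACH1 is a nuclear repressor of transcription. The 4 conditions were DACH1-induced cells in Neurobasal without serum (supplements N-2 and B-27, growth factors EGF and bFGF), DACH1-silenced cells in that medium, DACH1-induced cells in DMEM with 10% FBS, and DACH1-silenced cells in DMEM with 10% FBS. Every sample, silenced ones included, is labelled as given doxycycline at 1 µg/mL over 72 h. How silencing was obtained, and whether the line is a single clone, the labels leave unsaid. There was 1 array per condition, which limits the precision of every value, and nothing states that cultures were repeated.

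DACH1 checked the labels of induction. It read 875.1 on the induced and 32.5 on the silenced array labelled serum-free, and 4431 on the induced and 126.0 on the silenced array labelled serum. The other 2 of its 3 probe sets stayed dim. The labels of the medium were less clear: of 13 measured genes that serum or BMP signals are known to raise, such as the calponin gene CNN1 and the BMP target ID3, 10 were higher and 1 was lower in the arrays labelled serum-free by limma, whereas FOS and EGR1, which serum also induces, were lower there. Of 8 measured genes of cholesterol synthesis, which lipoproteins in serum are known to hold down, 1 (LSS) was higher and 0 were lower in those arrays. The arrays are therefore named by their labels only, as "labelled serum-free" and "labelled serum". Of the 6 glioma and astrocyte markers listed, GFAP, S100B and AQP4 lay under a signal of 10.9, the floor used here, on all 4 arrays. NES was dim, between 19.6 and 35.8, while VIM and CD44 were bright. The 10 measured markers of microglia, endothelium, epithelium and lymphocytes summed to 131.9 and 172.5 on the induced and silenced arrays labelled serum-free, and to 102.6 and 89.1 on the induced and silenced arrays labelled serum. Among them CSF1R read 47.9 (induced) and 72.2 (silenced) labelled serum-free, against 21.9 (induced) and 19.3 (silenced) labelled serum. It rose 2.86-fold (limma adjusted p 0.0308), while PECAM1, the only other one in the fit, did not pass (limma adjusted p 0.828).

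p53 is a transcription factor that is held low by the ubiquitin ligase MDM2 and accumulates after DNA damage, oncogene activity or loss of nutrients. Its targets stop the cell cycle, repair DNA, shift metabolism, feed back on p53 itself or, at the far end, kill the cell. Several of these genes also answer to other regulators: GADD45A, PMAIP1 and TNFRSF10B to the stress factors ATF4 and CHOP, and PLK2 and PLK3 to growth factors as immediate early genes.

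MDM2, the member with the largest difference in what follows, has separate start sites, and the inner one is known to be the start that p53 drives. Promoter windows from 250 bases before to 50 bases after annotated starts were taken from RefSeq (build GRCh38.p14) for 25 of the 31 genes. They were searched for the p53 response element, a self-complementary pattern of 20 bases read alike on both strands. Up to 3 mismatches were allowed outside its core C and G letters. The MDM2 windows of the outer start (chr12:68807922-68808221, plus strand) and of the inner start (chr12:68808767-68809066, plus strand) are shown because they differ in this element, which is in capitals.

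MDM2 outer start: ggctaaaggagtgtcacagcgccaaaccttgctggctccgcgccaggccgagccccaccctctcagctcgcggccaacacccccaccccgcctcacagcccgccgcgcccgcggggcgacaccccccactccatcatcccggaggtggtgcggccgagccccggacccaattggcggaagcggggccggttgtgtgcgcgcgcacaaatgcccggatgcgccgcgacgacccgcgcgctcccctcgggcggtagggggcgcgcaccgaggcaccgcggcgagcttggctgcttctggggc
MDM2 inner start: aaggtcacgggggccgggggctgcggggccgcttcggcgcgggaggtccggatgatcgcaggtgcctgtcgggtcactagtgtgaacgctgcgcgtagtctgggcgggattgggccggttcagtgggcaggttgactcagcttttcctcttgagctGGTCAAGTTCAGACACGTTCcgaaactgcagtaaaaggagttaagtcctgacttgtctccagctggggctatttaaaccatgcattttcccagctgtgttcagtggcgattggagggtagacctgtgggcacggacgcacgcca

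The outer window had no match, which says only that these letters are not in it. The match in the inner window lay at positions -94 to -75, with the start base as 0 (chr12:68808923-68808942). The search allowed no gap inside the element and no other letter at its core C and G. Elements that depart in these ways were missed, so the lower-case letters of any window may still hold one.

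Of the 25 genes with a window, 8 held a match, against 1.37% of 27305 genes in the same table and 1.12% of all windows. Since the genes were listed as p53 targets, this describes the list and is no finding. The sites are set side by side to show how far each departs from the pattern, with matching letters in capitals and mismatches in lower case.

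MDM2: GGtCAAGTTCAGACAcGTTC
DDB2: AAGCTgGTTTGAACAAGCCC
FAS: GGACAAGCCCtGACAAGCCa
AEN: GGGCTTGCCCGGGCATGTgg
PMAIP1: GAGCgTGTCCGGGCAgGTCg
SESN1: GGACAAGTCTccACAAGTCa
RPS27L: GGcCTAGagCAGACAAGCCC
FDXR: GGGCAgGagCGGGCTTGCCC

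DDB2 had 1 mismatch, MDM2, FAS and AEN had 2, and the other 4 had 3. Of 8 genes with a window that passed the test between media below, 1 held a match (MDM2), and of 14 that did not pass, 6 did. Not passing is not the absence of a difference. Whether a match goes with a medium difference was not tested. p53 elements further from the start, such as those known upstream of CDKN1A, lie outside these windows and were not searched.

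The first comparison was of the media, and most p53 response genes had lower signals in the arrays labelled serum-free, in both DACH1 states. In the limma fit of medium with DACH1 state as a second term, 11 of 28 members fell in the arrays labelled serum-free, 1 rose and 16 did not pass an adjusted p of 0.05. Over all 12103 genes fitted, 12.7% fell and 15.4% rose. The median log2 difference of the 28 was -0.77, beside 0.02 over all genes. Both arrays labelled serum-free lay below both arrays labelled serum for 20 of the 28 members, against 35.4% of all genes, and above both for 2, against 37.4%. The fit has 1 residual degree of freedom, which is the difference of the differences in single arrays. That residual holds technical scatter together with any real dependence of the medium difference on DACH1 state. limma draws it towards a value shared by all genes fitted. The p-values and SE therefore do not measure the spread between repeated cultures. When dim genes were kept in the fit 0 members passed, and with no floor TIGAR, XPC and ZMAT3 missed the threshold. In a culture, fewer cells that express a gene and less RNA per cell cannot be told apart.

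**Figure D1:**
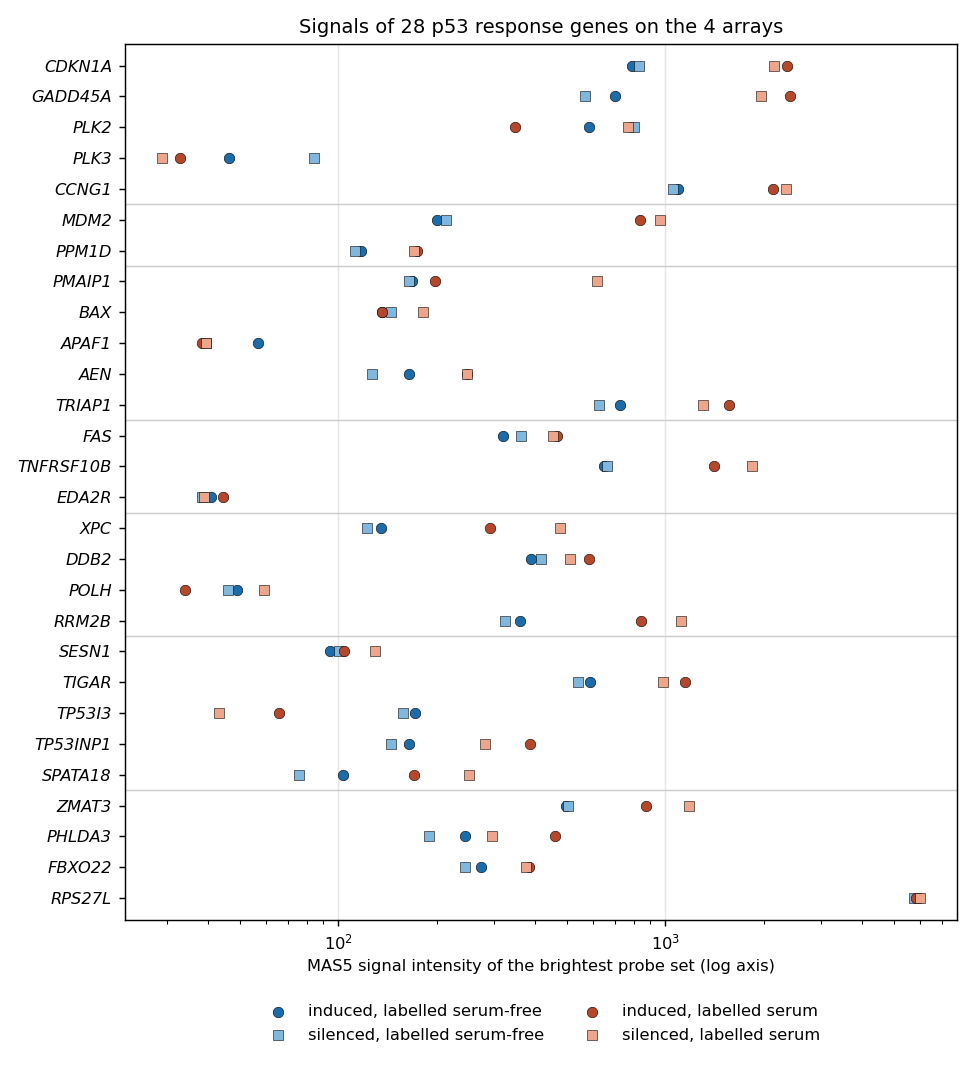
Signals of the 28 measured p53 response genes on the 4 arrays, 1 row per gene, on a log axis of MAS5 signal intensity; grey lines separate the roles in the order used in the text. For 20 genes both arrays labelled serum-free (blue) lie left of both arrays labelled serum (red); the reverse holds for PLK3 and TP53I3. Signals of different genes come from different probes and cannot be compared in level.

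Among the genes of arrest and damage response, CDKN1A, which encodes the CDK inhibitor p21, read 793.9 (induced) and 831.7 (silenced) on the arrays labelled serum-free, against 2350 (induced) and 2157 (silenced) on those labelled serum. By limma it fell 2.77-fold (log2 -1.47, SE 0.18, adjusted p 0.0210). GADD45A, a damage-inducible inhibitor of the G2 kinase, read 699.9 (induced) and 566.9 (silenced) labelled serum-free, against 2403 (induced) and 1965 (silenced) labelled serum. It fell 3.45-fold (log2 -1.79, SE 0.18, limma adjusted p 0.0188), by almost the same factor in induced (3.43-fold) and silenced cells (3.47-fold). CCNG1, a cyclin that recruits a phosphatase to MDM2, read 1095 (induced) and 1059 (silenced) labelled serum-free, against 2136 (induced) and 2343 (silenced) labelled serum, and fell 2.08-fold (limma adjusted p 0.0306).

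The polo-like kinase genes did not follow. PLK2 read 584.2 (induced) and 802.1 (silenced) labelled serum-free, against 346.6 (induced) and 768.0 (silenced) labelled serum, so the media overlapped. PLK3 read 46.4 (induced) and 84.1 (silenced) labelled serum-free, against 32.7 (induced) and 29.0 (silenced) labelled serum (log2 1.02, SE 0.31, limma adjusted p 0.0825). A second, dimmer PLK3 probe set went the other way, with 26.8 (induced) and 31.3 (silenced) labelled serum-free, against 56.5 (induced) and 62.2 (silenced) labelled serum. The direction for PLK3 therefore rests on the choice of probe set.

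Of the feedback genes, MDM2 fell most of all members. It read 201.0 (induced) and 212.9 (silenced) on the arrays labelled serum-free, against 838.4 (induced) and 962.0 (silenced) on those labelled serum. Both arrays labelled serum-free lay far below both others. The fall was 4.34-fold (log2 -2.12, SE 0.18, limma adjusted p 0.0170). MDM2 has 10 probe sets, and the 9 that reached the median signal in both pairs were all lower in both, 7 of them at least 2-fold. PPM1D, the WIP1 phosphatase gene that switches off damage kinases, read 117.5 (induced) and 112.7 (silenced) labelled serum-free, against 174.5 (induced) and 169.9 (silenced) labelled serum. The media did not overlap, at a ratio of 1.5, but it did not pass (limma adjusted p 0.0805).

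The mitochondrial death pathway was divided. TRIAP1, a small inhibitor of the apoptosome, read 728.5 (induced) and 627.7 (silenced) labelled serum-free, against 1563 (induced) and 1307 (silenced) labelled serum, and fell 2.11-fold (log2 -1.08, SE 0.18, limma adjusted p 0.0286). AEN, an apoptosis-enhancing nuclease gene, read 164.8 (induced) and 127.1 (silenced) labelled serum-free, against 248.3 (induced) and 247.2 (silenced) labelled serum (log2 -0.78, SE 0.20, limma adjusted p 0.0582). BAX, which opens the mitochondrial outer membrane, read 136.4 (induced) and 145.2 (silenced) labelled serum-free, against 136.5 (induced) and 181.6 (silenced) labelled serum. APAF1, the scaffold of the apoptosome, read 56.8 (induced) and 39.5 (silenced) labelled serum-free, against 38.4 (induced) and 39.5 (silenced) labelled serum. For BAX and APAF1 the arrays of the media overlapped or touched. PMAIP1, the BH3-only gene NOXA, is described with DACH1 below, because its medium difference was not alike in both DACH1 states.

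Among death receptors, TNFRSF10B, the TRAIL receptor DR5, read 647.7 (induced) and 663.2 (silenced) labelled serum-free, against 1413 (induced) and 1844 (silenced) labelled serum. It fell 2.46-fold (log2 -1.30, SE 0.20, limma adjusted p 0.0260). Of its 4 probe sets 3 were lower in both pairs and 1, which read at most 20.5, was higher. FAS, the CD95 receptor, read 319.6 (induced) and 361.3 (silenced) labelled serum-free, against 466.3 (induced) and 453.1 (silenced) labelled serum, and did not pass (log2 -0.44, SE 0.19, limma adjusted p 0.151). EDA2R, the ectodysplasin A2 receptor gene, read between 38.3 and 44.4 on all 4 arrays.

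In DNA repair, XPC, which recognises distorted DNA in nucleotide excision repair, read 134.9 (induced) and 122.6 (silenced) labelled serum-free, against 291.2 (induced) and 475.7 (silenced) labelled serum. It fell 2.89-fold (log2 -1.53, SE 0.28, limma adjusted p 0.0323). RRM2B, the p53-inducible subunit of ribonucleotide reductase, read 360.6 (induced) and 324.5 (silenced) labelled serum-free, against 842.5 (induced) and 1120 (silenced) labelled serum. It fell 2.84-fold (log2 -1.51, SE 0.23, limma adjusted p 0.0257). DDB2, the XPC partner that finds ultraviolet lesions, read 388.5 (induced) and 417.2 (silenced) labelled serum-free, against 585.7 (induced) and 512.2 (silenced) labelled serum (log2 -0.44, SE 0.19, limma adjusted p 0.156). POLH, a translesion polymerase gene, overlapped between the media on its brightest probe set (log2 0.08, SE 0.29, limma adjusted p 0.850). Of its 6 probe sets, 4 were compared in both pairs. Of those, 2 were higher labelled serum-free in both pairs and 0 were lower in both. All were dim, at 62.1 or less, and the POLH result rests on the choice of probe set.

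The metabolic members held the one gene that rose. TP53I3, a quinone oxidoreductase gene also called PIG3, read 172.1 (induced) and 157.6 (silenced) on the arrays labelled serum-free, against 66.0 (induced) and 43.3 (silenced) on those labelled serum. It rose 3.08-fold (log2 1.62, SE 0.21, limma adjusted p 0.0224), on its only probe set. TIGAR, a bisphosphatase that restrains glycolysis, read 587.1 (induced) and 541.5 (silenced) labelled serum-free, against 1147 (induced) and 986.3 (silenced) labelled serum, and fell 1.89-fold (limma adjusted p 0.0357). TP53INP1, a nuclear and autophagy protein gene, fell 2.13-fold (limma adjusted p 0.0308). It read 164.9 (induced) and 145.3 (silenced) labelled serum-free, against 386.5 (induced) and 281.9 (silenced) labelled serum. SPATA18, a gene of mitochondrial quality control, read 103.3 (induced) and 75.6 (silenced) labelled serum-free, against 170.0 (induced) and 251.4 (silenced) labelled serum, and did not pass (log2 -1.23, SE 0.31, limma adjusted p 0.0565). It passed under 6 of 9 alternative settings. SESN1, a sestrin of the amino acid response, had a log2 difference of -0.26 (SE 0.19, limma adjusted p 0.346).

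Of the remaining members, ZMAT3, an RNA-binding protein gene, read 496.0 (induced) and 503.7 (silenced) labelled serum-free, against 875.3 (induced) and 1183 (silenced) labelled serum. It fell 2.04-fold (log2 -1.03, SE 0.21, limma adjusted p 0.0372), and all 5 of its probe sets were lower in both pairs. PHLDA3, an inhibitor of AKT, read 243.8 (induced) and 190.1 (silenced) labelled serum-free, against 458.8 (induced) and 295.0 (silenced) labelled serum (log2 -0.77, SE 0.19, limma adjusted p 0.0535). FBXO22, a substrate receptor of a ubiquitin ligase, read 274.1 (induced) and 244.8 (silenced) labelled serum-free, against 384.3 (induced) and 376.4 (silenced) labelled serum (log2 -0.55, SE 0.18, limma adjusted p 0.0910). RPS27L encodes a ribosomal protein with a near-identical relative, RPS27, and read between 5761 and 5996 on all 4 arrays. Its other 2 probe sets were lower in both pairs, and which of the 2 genes the bright probe set reads was not tested.

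**Figure D2:**
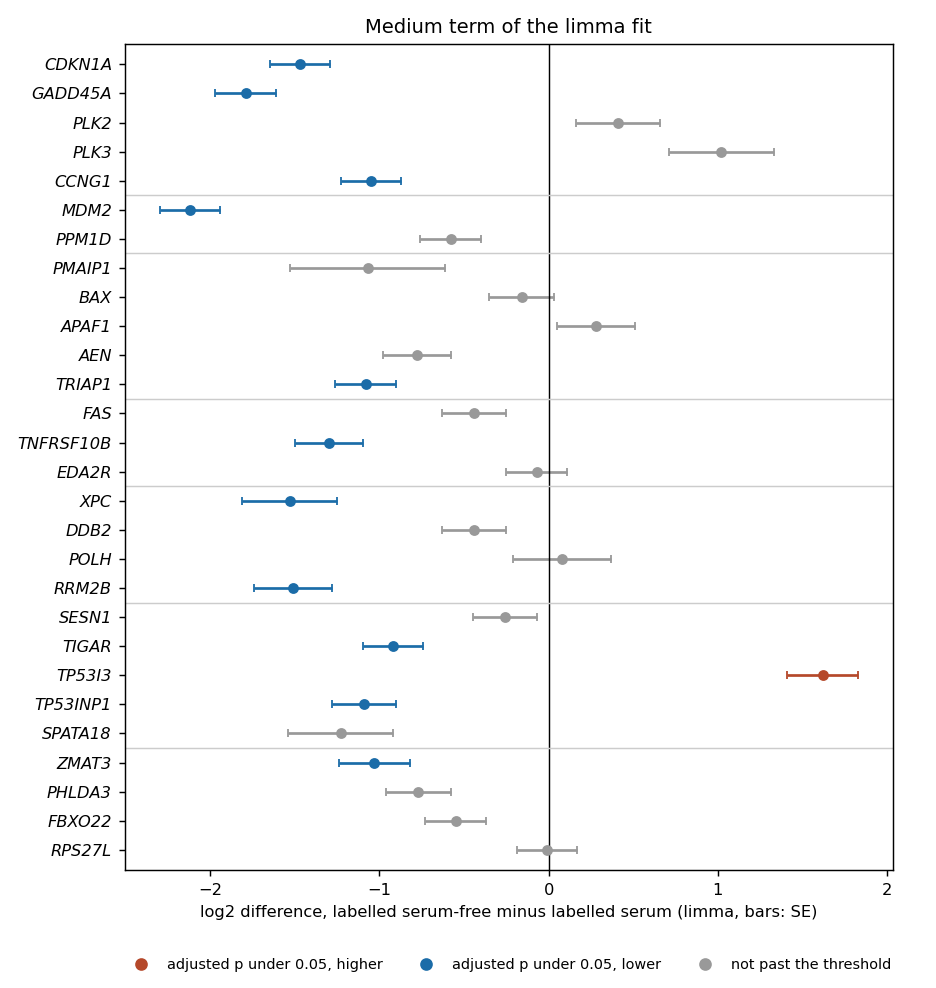
log2 difference of each p53 response gene between the media, labelled serum-free minus labelled serum, from limma with DACH1 state as a second term; bars are the SE from the fit over 4 arrays. The 11 blue genes (-2.12 to -0.92) and the 1 red gene (TP53I3, 1.62) passed an adjusted p of 0.05, and the 16 grey genes did not.

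Within the pairs of single arrays, which have no test, 8 of 28 members were at least 2-fold lower labelled serum-free in DACH1-induced cells, against 10.1% of all genes, and 11 in DACH1-silenced cells, against 12.2%. At least 2-fold higher were 1 in induced cells, against 14.0% of all genes, and 2 in silenced cells, against 15.3%. The 7 members at least 2-fold lower in both pairs were CDKN1A, GADD45A, MDM2, TRIAP1, TNFRSF10B, XPC and RRM2B, where 6.98% of all genes were so. TP53I3 alone was at least 2-fold higher in both, against 9.42% of all genes. Without regard to size, 22 members were lower in both pairs, against 39.3% of all genes, and 3 were higher in both, against 41.4%. The medians over members were -0.59 in induced and -0.75 in silenced cells, with 0.01 and 0.06 over all genes.

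**Figure D3:**
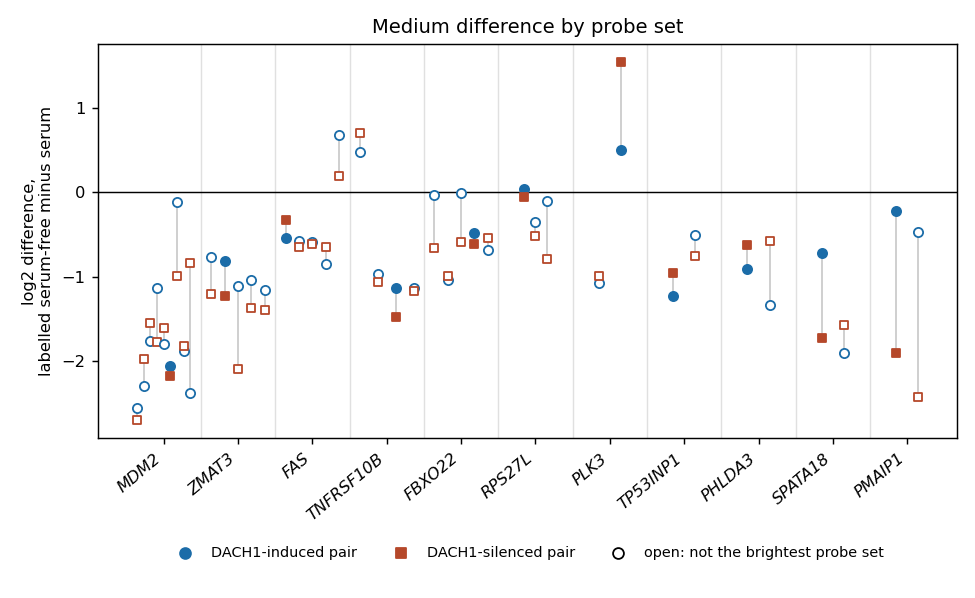
log2 difference between the media, labelled serum-free minus labelled serum, for each probe set of 11 p53 response genes with more than 1 probe set, in the DACH1-induced pair (circles) and the DACH1-silenced pair (squares); filled marks are the brightest probe set. Probe sets that reached a signal of 17.2 in both pairs are drawn. BAX, APAF1, POLH and PPM1D also have more than 1 probe set and are not drawn. Of their probe sets so compared, 2 of POLH and 1 of APAF1 were higher in both pairs. By contrast, 2 of BAX and 1 of PPM1D were lower in both. The brightest BAX probe set barely differed in the induced pair, with 136.4 labelled serum-free and 136.5 labelled serum. All 9 of MDM2 and all 5 of ZMAT3 lie below 0, the 2 of PLK3 lie on opposite sides, and the PMAIP1 circles and squares are far apart.

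Other genes of the pathway were listed beside the members. Of 18 measured regulators of p53, 2 fell and 1 rose in the arrays labelled serum-free, with a median log2 difference of -0.28. These counts are no higher than the shares of all genes, 12.7% that fell and 15.4% that rose. HIPK2, a kinase that phosphorylates p53, fell 2.84-fold (limma adjusted p 0.0224), and SIRT1, which deacetylates it, fell 2.45-fold (limma adjusted p 0.0242). PPP1R13L, which encodes the p53 inhibitor iASPP, rose 1.77-fold (limma adjusted p 0.0421). MDM4, the partner of MDM2, read 162.3 (induced) and 194.9 (silenced) labelled serum-free, against 211.7 (induced) and 335.3 (silenced) labelled serum, and did not pass (limma adjusted p 0.105). Of 26 further p53 target genes measured, 24 entered the fit, of which 8 fell and 3 rose, with a median of -0.45. GDF15, a stress cytokine, fell 11.2-fold (limma adjusted p 0.0231), the ubiquitin ligase adaptor SUSD6 fell 3.0-fold (limma adjusted p 0.020) and SESN2 fell 2.29-fold (limma adjusted p 0.0277), while PERP, a desmosomal membrane protein gene, rose 2.09-fold (limma adjusted p 0.0424).

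Cell division genes moved opposite to CDKN1A. p21 is known to keep the DREAM complex on their promoters, and 22 of 24 such genes rose in the arrays labelled serum-free while 0 fell, with a median log2 difference of 1.71. FOXM1, a transcription factor of mitosis, rose 11.9-fold (limma adjusted p 0.0167). Genes of other regulators fell beside the p53 targets: 7 of 12 in the integrated stress response (1 rose) and 8 of 14 among immediate early and NF-kB genes (0 rose). Over all genes fitted, 12.7% fell and 15.4% rose. SESN2 is listed both with the further p53 target genes and with the integrated stress response, so its fall is counted in each. In the first, DDIT3, which encodes CHOP, fell 4.52-fold (limma adjusted p 0.0203), and ATF3 fell 8.79-fold (limma adjusted p 0.0167). The part of any of these in the differences of the p53 response genes was not tested.

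**Figure D4:**
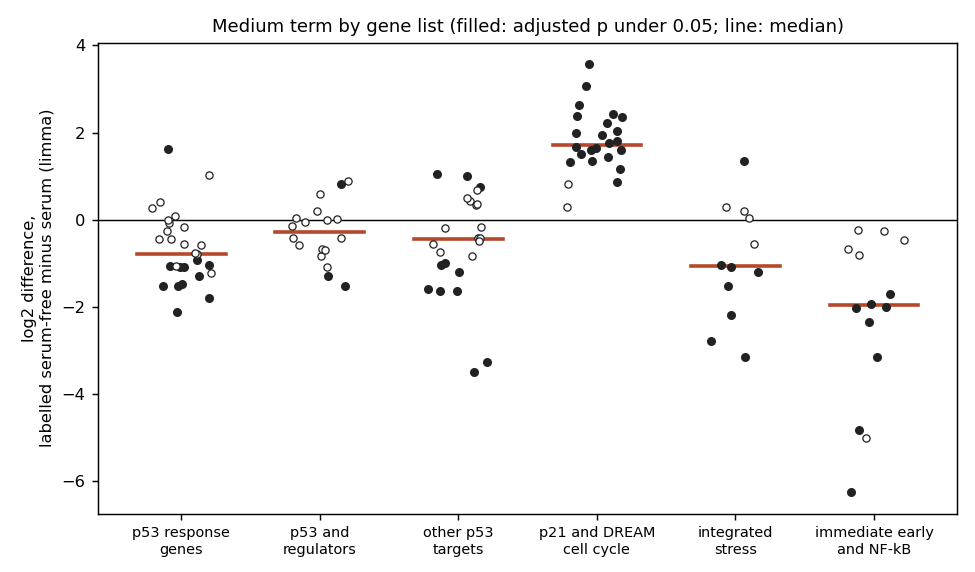
log2 difference between the media, labelled serum-free minus labelled serum, from limma, for p53 response genes and 5 related gene lists; each point is a gene, filled where the adjusted p was under 0.05, and red lines are medians. The p53 response genes centre at -0.77 and the cell cycle genes at 1.71.

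The second comparison was of DACH1 induction. PMAIP1 and PLK2 were at least 2-fold lower with DACH1 induced in the arrays labelled serum, and no other member differed 2-fold in either medium. In the limma fit, 0 of 28 members passed an adjusted p of 0.05, with adjusted p from 0.931 to 0.999. Over all 12103 genes 0.0% passed in either direction, and DACH1 itself did not (log2 4.94, SE 0.20, limma adjusted p 0.234), so the absence of calls shows nothing about whether members changed. At an unadjusted p under 0.05 there were 1 member, PLK2 (p 0.0328 in limma), and 585 genes in all. The members were split, with 14 below 0 and a median log2 difference of -0.02, beside 0.01 over all genes. CDKN1A differed by 0.12 in the arrays labelled serum and by -0.07 in those labelled serum-free, and MDM2 by -0.20 and -0.08.

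In the arrays labelled serum, 2 of 28 members were at least 2-fold lower with DACH1 induced, against 4.77% of all genes, and 0 were higher, against 2.91%. PMAIP1, a BH3-only protein gene that neutralises the survival factor MCL1, read 197.6 in induced and 619.3 in silenced cells, 3.13-fold lower. Its second probe set read 113.5 in induced and 489.9 in silenced cells, 4.32-fold lower. On the arrays labelled serum-free the first probe set read 168.3 in induced and 165.1 in silenced cells, and the second 81.8 and 90.7. The silenced array labelled serum thus stood alone, and the other 3 arrays were close together.

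PLK2, a kinase that answers both p53 and growth factors, read 346.6 in induced and 768.0 in silenced cells labelled serum, 2.22-fold lower. On the arrays labelled serum-free it read 584.2 in induced and 802.1 in silenced cells, 1.37-fold lower. The other 26 members had log2 differences from -0.80 to 0.64 in the arrays labelled serum. The lowest of these were POLH (-0.80) and XPC (-0.71), and the highest was PHLDA3 (458.8 in induced and 295.0 in silenced cells). In the same pair the integrated stress response, to which PMAIP1 also belongs as a known target, had 4 of 12 genes at least 2-fold lower and 0 higher: ASNS (2.17-fold), TRIB3 (2.06-fold), DDIT4 (2.05-fold) and CHAC1 (2.0-fold). Its part in the PMAIP1 difference was not tested. CHEK2, the checkpoint kinase that phosphorylates p53, read 84.0 in induced and 326.0 in silenced cells. Among the further p53 target genes, 25 of which reached the median signal in this pair, 3 were lower by 2-fold or more in the same arrays, GDF15 being one of them, with 241.1 in induced and 852.3 in silenced cells.

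In the arrays labelled serum-free, 0 of 28 members were 2-fold different in either direction, where 2.73% of all genes were lower and 1.02% higher. The log2 differences of members ran from -0.86 to 0.52. The lowest was PLK3, with 46.4 in induced and 84.1 in silenced cells, and the highest APAF1, with 56.8 in induced and 39.5 in silenced cells, both dim.

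**Figure D5:**
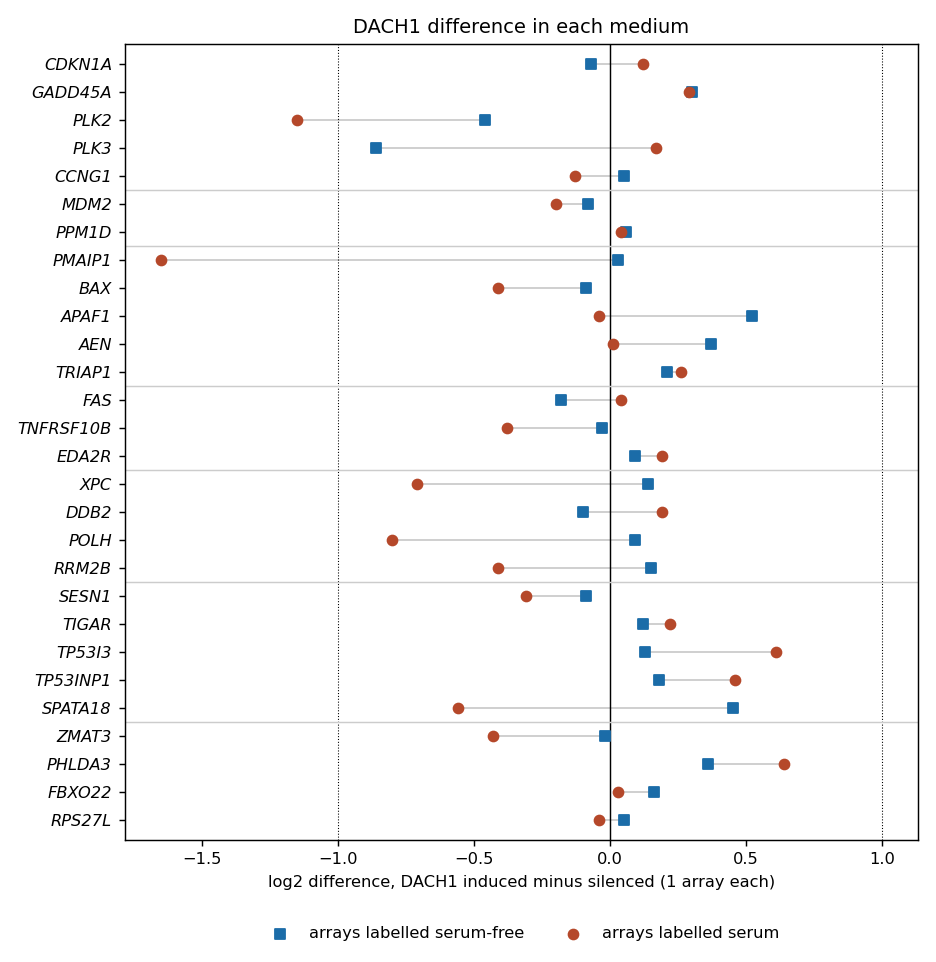
log2 difference of each p53 response gene between DACH1-induced and DACH1-silenced cells in the arrays labelled serum-free (blue squares) and labelled serum (red circles), 1 array per condition; dotted lines mark 2-fold. Only PMAIP1 (-1.65) and PLK2 (-1.15) pass 2-fold, in the arrays labelled serum.

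Whether DACH1 acted alike in both media was not tested, as the 4 arrays leave no error for it. The DACH1 signal itself was not alike in the media. It was 5.06-fold lower labelled serum-free in induced cells (875.1 against 4431) and 3.88-fold lower in silenced cells. On the log2 scale the DACH1 difference was 1.68 higher in the arrays labelled serum-free for PMAIP1, 1.01 higher for SPATA18, 0.89 higher for POLH and 0.85 higher for XPC, and it was 1.03 lower for PLK3. For CDKN1A, GADD45A, MDM2, CCNG1 and TRIAP1 it lay between -0.19 and 0.18. The large medium differences of those 5 genes were thus of nearly the same size in both DACH1 states. This quantity is also the residual of the limma fit, so a small one helps a gene pass the medium test. Members that passed were not all alike in it. TIGAR also had a small one (-0.10), but XPC fell 3.88-fold in silenced and 2.16-fold in induced cells. RRM2B fell 3.45-fold in silenced and 2.34-fold in induced cells.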

How the data were processed

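Total RNA (6 µg for labelling, per the labels' protocols) from 4 cultures was hybridised to 4 arrays. Each deposited column holds linear signal intensity, which the authors computed in MAS5, according to the submitters' processing notes. The MAS5 version was not given in the sources used here. All 4 columns were used and 0 were left out. Of 54613 probe sets, 41091 had 1 gene in the platform annotation, 1801 several and 11721 are unnamed here; Entrez identifiers gave a current symbol for 99.9% of the first kind.

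Signals under the 40th percentile (10.9) were set to that value, then log2 was taken. A gene entered a pair of arrays if 1 reached the median of all signals (17.2), and the limma fit if 2 did. The fit (lmFit, eBayes) had DACH1 state and medium as terms, adjusted by Benjamini-Hochberg over 12103 genes, and was tested on simulated data. Pairs of single arrays were counted at 2-fold, with no test. Members, roles and lists were chosen with earlier results of these data known. All 31 members were followed by rule, with values per array for those that passed or reached 2-fold. The 9 alternatives changed scaling (quantile), the floor (none, 50 with an array at 100, or a pseudocount instead), the filter (none, or all arrays above the median), the probe sets (averaged, or without _x_at and _s_at) and the variance prior (with a trend). The fit used limma 3.58.1 in R 4.3.3; tables and figures used pandas 2.3.3, numpy 2.4.6 and matplotlib 3.10.9 in Python 3.11.15.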

Additional observations from a re-analysis of the deposited data

How the results depend on the processing

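Against 11 p53 response genes that fell and 1 that rose between the media in limma, the test called 0 and 0 with no filter on low signals. The share of all genes that passed was not counted under that setting, so these counts cannot be set against it. Without _x_at and _s_at probe sets 10 fell and 0 rose, since TP53I3, like CDKN1A and CCNG1, has only such a probe set. The other alternatives gave 8 to 16 falling members: with no floor TIGAR, XPC and ZMAT3 missed the threshold (adjusted p 0.0515, 0.0505 and 0.0547 in limma), and a floor of 50 with arrays at 100 added PPM1D, AEN, SPATA18, PHLDA3 and FBXO22. No called direction turned under any of the 9. Averaging all probe sets reduced the TNFRSF10B log2 difference to -0.72, still past the threshold, as its dim probe set ran the other way. Members at least 2-fold higher labelled serum-free in silenced cells numbered 1 instead of 2 with a floor of 50 and arrays at 100, with the mean of all probe sets, and without _x_at and _s_at probe sets; under the last setting 0 instead of 1 were higher in induced cells. For DACH1 in the arrays labelled serum, 1 member instead of 2 was 2-fold lower without _x_at and _s_at probe sets, as both PMAIP1 probe sets are of that kind. The DACH1 term called 0 members under all 9. Leaving out an array turns the fit into the pairs of single arrays given above, with no error. The medium fit already takes its differences within each DACH1 state. No paired analysis was possible because the labels carry no replicate numbers by which to pair arrays further. Low MAS5 signals are noisy on the log scale, which limits PLK3, POLH, APAF1 and EDA2R most, all under 100.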
